A study of Capsella rubella with 6 samples.

Results

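The genes described here gave mainly maternal reads, with some paternal reads, in dissected endosperm of *Capsella rubella*. They were selected on the maternal share of their allelic reads: in each of 4 endosperm libraries a member had 20 or more allelic reads, 85% or more of them maternal, and in at least 1 library it was under 99%. This rule was met by 145 genes, of 6990 with 20 reads in each library (called covered genes below) and of 12641 gene intervals with a SNP. Another 52 covered genes stayed at 99% or more in each library and are called almost wholly maternal. Because that share chose them, its size in the members is given as a description with no test. Tests were made of the difference by accession, on the same counts but another contrast, and of total reads.

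Endosperm is the nourishing tissue of the seed. It forms when a sperm cell fertilises the central cell, which brings 2 maternal genomes to 1 paternal genome. In plants, genomic imprinting, the unequal use of a gene according to the parent it came from, is found mainly in this tissue. In *Arabidopsis*, a relative of *Capsella*, maternally expressed genes are typically active on the maternal copy after DNA demethylation in the central cell, and the paternal copy can be kept silent by DNA methylation or by Polycomb proteins. Silencing of the paternal copy can be complete or partial. The members were chosen on read counts alone, and whether they are imprinted, or their paternal copies partly silenced, was not tested.

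The libraries came from reciprocal crosses of 2 accessions: Cr48.21, called Cr A, and Cr75.2, called Cr B. The direction Cr A x Cr B had 2 libraries, as had Cr B x Cr A, and each held the pooled, dissected endosperm of 300 to 500 seeds at 6 days after pollination. Female flowers were emasculated 2 days before hand-pollination. Which partner served as the female is not in the labels; names were read here as female x male, and on the other reading Cr A and Cr B change places in the results by accession. Separate plants are not stated for the replicates, and p-values cover only the spread between these pools of seeds. Allelic reads numbered 8122761 and 11702341 in the Cr A x Cr B libraries and 9524883 and 11637156 in the Cr B x Cr A libraries. A read over several SNPs was counted at each. Gene intervals carry no names in the files and could not be matched to named genes, so members are identified by position and no gene role is given. For the same reason the endosperm label was not checked against markers of endosperm, seed coat or embryo. Seed coat is maternal tissue, and what part its reads had in the maternal shares was not tested.

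In the typical member paternal reads were a small share of the total. The median paternal share of the 145 members was 2.19% and 3.49% in the Cr A x Cr B libraries, replicates 1 and 2, and 3.27% and 1.92% in the Cr B x Cr A libraries. Over all covered genes the medians were 30.7% and 32.2% in Cr A x Cr B and 30.4% and 27.8% in Cr B x Cr A; 1 paternal genome of 3 would give 33.3%. Cr B x Cr A replicate 2 had the lowest median in both sets of genes. The mean maternal share of a member over the 4 libraries had a median of 96.8%, from 88.7% to 99.7%. Between 85% and 90% lay 5 members, between 90% and 95% lay 37, between 95% and 98% lay 56, and 47 were at 98% or more.

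**Figure D1:**
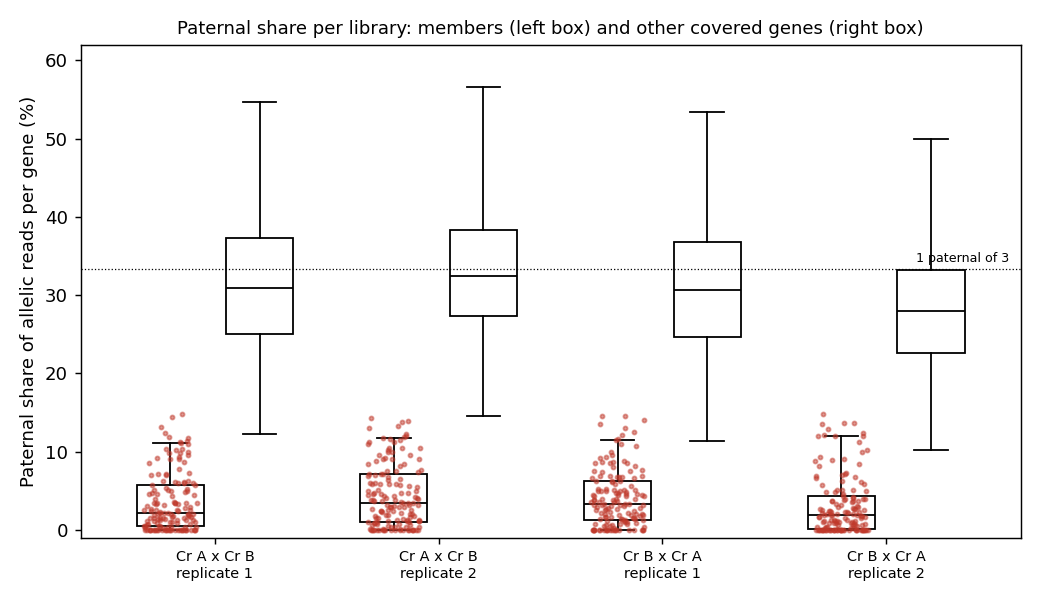
Paternal share of allelic reads per gene (%, vertical axis) in each library (horizontal axis), for the 145 members (left box and red points, 1 per gene) and the other covered genes (right box). Boxes give the median and quartiles, whiskers the 5th and 95th percentiles, and the dotted line 1 paternal genome of 3. The members' medians lie between 1.92% and 3.49%, and the rule keeps every member at 15% or less.

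Calls of a wrong base at the same SNPs were rare. In the members, 0.0814% of calls were a base that neither parent carries, against 0.0937% over all covered genes, while 4.25% of the members' summed allelic reads were paternal. In 142 members paternal reads outnumbered such other-base calls, in 120 of them by more than 10 times; in 2 members the numbers were equal and in 1 the other-base calls were more. The rule asks for over 1% paternal reads in some library, so these counts describe the members and are not evidence for their paternal reads. In 87 members a paternal read was seen in all 4 libraries, in 26 in 3 libraries, in 16 in 2 and in 16 in only 1. In 21 members all libraries together held no more than 3 paternal reads. The 95% interval of the paternal share (Clopper-Pearson, counting error only, and too narrow where a read was counted at several SNPs) had its lower end above 1% in all 4 libraries in 30 members, in 3 libraries in 27, in 2 in 24, in 1 in 28 and in none in 36.

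Reads were unevenly spread over the members. Each member had a median of 221 allelic reads per library, against 404 for covered genes and 329 for the almost wholly maternal genes. In 42 members the least covered library had under 50 reads, and in 75 members it had 100 or more. One gene, at scaffold 5, 6018196 to 6019641, gave 43.0% of the members' paternal reads. Without it, the paternal share of the summed reads was 3.28% in place of 4.25%.

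That gene was the most deeply covered member, with 5 exon SNPs on the minus strand. It had 29487 and 41878 allelic reads in Cr A x Cr B and 56352 and 40338 in Cr B x Cr A. Of these, 9376 to 18081 per library were counted at SNP 6018664 and 9117 to 16929 at 6018672. These SNPs lie close together, so many reads were counted at both. The depth and the paternal reads of this gene include such repeats. Its paternal share was 11.0% and 8.86% in Cr A x Cr B and 6.19% and 3.17% in Cr B x Cr A. Summed over its SNPs, both Cr A x Cr B libraries lay above both Cr B x Cr A libraries. This order failed at SNP 6018844. There the share was 15.6% and 13.96% in Cr A x Cr B, on 4030 and 5352 reads. In Cr B x Cr A it was 26.2% and 1.93%, on 884 and 7500 reads. At each of the other SNPs of the gene the order held. For the whole gene the difference by accession was not past the threshold (log2 Cr A over Cr B -0.62, SE 0.18, adjusted p = 0.0709, edgeR).

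The next most covered lay at scaffold 2, 1047690 to 1050750, on the minus strand. Its reads numbered 22923 and 15198 in Cr A x Cr B and 8387 and 16344 in Cr B x Cr A, and its paternal share was 0.973% and 1.92%, against 4.82% and 3.33%. Here the Cr B x Cr A libraries were the higher pair, and its SNPs, described further on, were far from alike. At scaffold 6, 6198054 to 6200889, plus strand, the paternal share was 1.26% and 1.17% in Cr A x Cr B and 0.362% and 0.318% in Cr B x Cr A, over 7614 to 19622 reads per library. Replicates of a direction were close to each other and the directions did not overlap. The SNPs of this gene were not alike. At its deepest SNP, 6200728, the share was 18.1% and 5.19% in Cr A x Cr B, on 116 and 366 reads, and 0.0467% and 0.120% in Cr B x Cr A, on 6420 and 3329 reads, while at 6200566 it was between 0.516% and 0.913% in all 4 libraries.

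Other deeply covered members differed widely between the replicates of a direction. At scaffold 4, 2451708 to 2456314, minus strand, with 29 SNPs and 3068 to 9947 reads per library, the paternal share was 11.7% and 2.41% in Cr A x Cr B and 6.86% and 0.875% in Cr B x Cr A. In both directions replicate 1 was the higher library. A short interval at scaffold 3, 3096109 to 3096387, minus strand, had 0.936% and 3.39% in Cr A x Cr B and 1.63% and 12.02% in Cr B x Cr A, and here replicate 2 was the higher library in both. Its 2 SNPs lie 14 bp apart, so many reads were counted at both.

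Some members were closer across the libraries. At scaffold 5, 6012082 to 6013096, plus strand, the share was 2.83% and 3.71% in Cr A x Cr B and 3.95% and 2.70% in Cr B x Cr A, and the mean maternal share was 96.7% ± 0.62 (SD, n = 4). At scaffold 3, 14359202 to 14360488, minus strand, it was 7.32% and 7.71% in Cr A x Cr B and 12.1% and 11.9% in Cr B x Cr A. Replicates of this gene differed by less than 1 point and its 5 SNPs, summed over libraries, ran from 7.88% to 10.9%, but the difference by accession missed the threshold (log2 0.37, SE 0.11, adjusted p = 0.0674, edgeR). The other 3 of the 10 most covered members, on scaffolds 6, 1 and 8, had paternal shares from 0.218% to 4.73%.

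**Figure D2:**
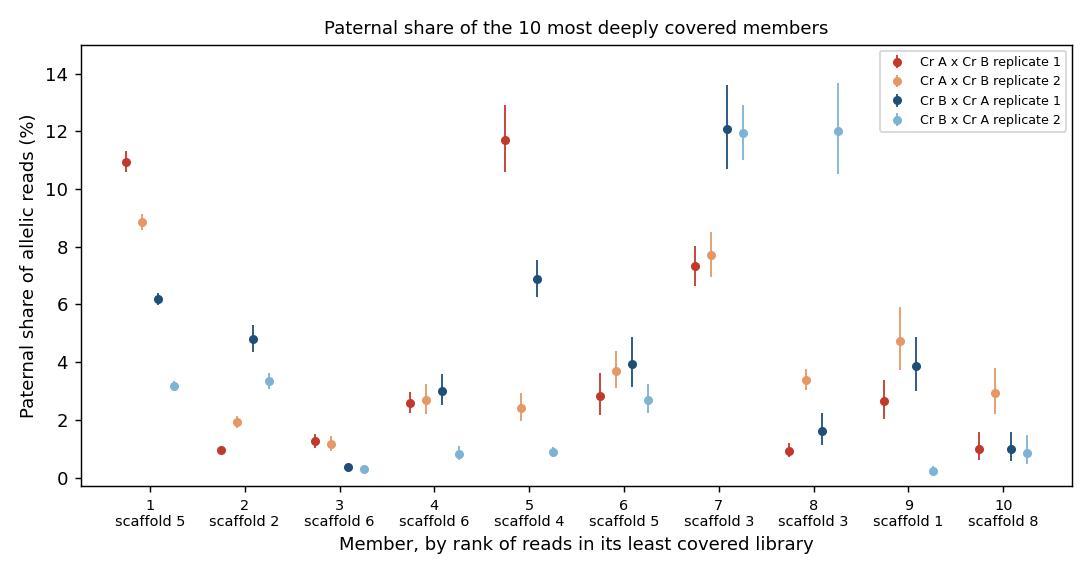
Paternal share of allelic reads (%, vertical axis) of the 10 members with the most reads in their least covered library (horizontal axis, by rank and scaffold), 1 point per library with its 95% Clopper-Pearson interval. The gene of rank 5 spans 0.875% to 11.7% with replicate 1 high in both directions, while rank 6 stays between 2.70% and 3.95%.

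The members with the highest paternal shares held paternal reads in every library. With a minimum of 50 reads in each library, the lowest mean maternal share was at scaffold 7, 5558582 to 5563509, plus strand, at 88.8% ± 2.38 (SD, n = 4). Its paternal share was 8.61% and 10.0% in Cr A x Cr B and 14.1% and 11.9% in Cr B x Cr A, over 151 to 213 reads. Next came scaffold 6, 5344714 to 5347905, plus strand, at 89.0% ± 2.41 (SD, n = 4), with 10.3% and 9.02% paternal reads in Cr A x Cr B and 14.5% and 10.2% in Cr B x Cr A. In these 2 genes all 4 libraries held paternal reads at 8% or more. The scaffold 6 gene rested mainly on 1 exon SNP, 5347737, with 8913 of its 9081 reads. In the scaffold 7 gene the SNPs were not alike. At 5559422 the share was 1.82% and 10.9% in Cr A x Cr B and 0% and 32.1% in Cr B x Cr A, on 27 to 55 reads. The other 3 of the 5 lowest, on scaffolds 2, 3 and 1, had means from 89.9% to 90.7%.

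At the other end, 5 members reached mean maternal shares of 99.6% to 99.7% and rested on few paternal reads. The highest, at scaffold 4, 2226844 to 2229687, minus strand, had 1 paternal read in 885 over the 4 libraries. That read fell in Cr B x Cr A replicate 1, a library with 88 reads of the gene, so 1 read placed the gene under 99%. In each of these 5 genes the paternal reads came from 1 library and numbered 1 to 6. The counts do not separate such members from the almost wholly maternal genes.

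The bounds cut a continuous range. Just inside 85%, the lowest library of 3 members was at 85.1%, 85.2% and 85.5%, and just outside it 3 genes stood at 84.9% in their lowest library. Just inside 99%, the lowest library of 3 members was at 98.9%, with 88, 89 and 176 reads in that library. Just outside, it was at 99.01%, 99.1% and 99.1%.

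**Figure D3:**
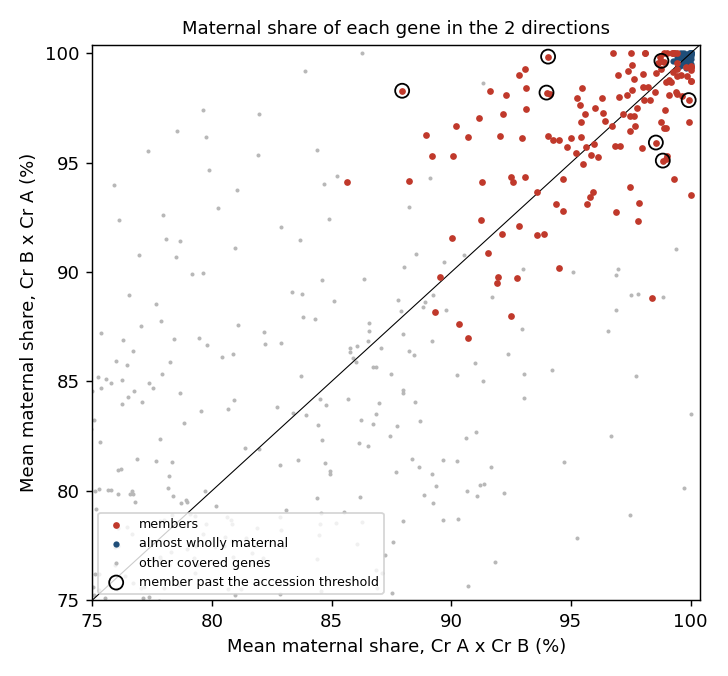
Mean maternal share (%) in Cr A x Cr B (horizontal axis) and in Cr B x Cr A (vertical axis), 1 point per gene, for members (red), almost wholly maternal genes (blue) and other covered genes (grey), drawn from 75% up. The line marks equal shares and circles mark the 7 members past the accession threshold, 4 above the line and 3 below it.

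Members differed in how far their libraries lay apart. The range of the paternal share over the 4 libraries had a median of 4.77 points and exceeded 5 points in 66 members. Of the 5 members with the largest ranges, 4 had 1 or 2 SNPs. At scaffold 7, 5061884 to 5063260, minus strand, which has 1 SNP, paternal reads numbered 28 of 447 and 0 of 75 in Cr A x Cr B, against 27 of 186 and 0 of 197 in Cr B x Cr A. Both replicate 1 libraries held paternal reads and both replicate 2 libraries held none. The single SNP at scaffold 2, 9814757 to 9816333, minus strand, gave 14.5% and 5.10% in Cr A x Cr B and 4.45% and 2.19% in Cr B x Cr A. Ranges of the other 3 of the 5 widest were between 11.2 and 11.7 points.

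Replicate 2 of Cr B x Cr A was the less paternal library in most members. In Cr B x Cr A, 94 members had a lower paternal share in replicate 2, 41 a higher and 10 an equal one, and over all covered genes 65.7% were lower in replicate 2. In Cr A x Cr B, 54 members were lower in replicate 2, 84 higher and 7 equal, and over all covered genes 38.9% were lower. The members moved the same way as covered genes did in each direction, and what part the library had in single members was not tested.

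The accession of the allele was then compared, which is also the difference of the maternal share between the directions. The question is whether the remaining paternal reads depend on which accession was the father. edgeR's quasi-likelihood test called 7 of the 145 members (4.83%) at a Benjamini-Hochberg adjusted p under 0.05, against 14.4% of 8597 genes tested. The Cr A allele was the higher one in 3 members (5.09% of all genes were called that way) and the Cr B allele in 4 (9.33% of all genes). The rule, which holds the share at 85% or more in both directions, limits how far a member can differ, and the test used the same counts, so the lower count is not a result about the members. At an unadjusted p under 0.05 there were 19 members (13.1%), against 27.9% of all genes tested. Leaving out any 1 library leaves a direction with 1 library, and the members' share called stayed below that of all genes. The same limit holds for these lower shares. The median log2 Cr A over Cr B was -0.03 over members and -0.08 over all genes tested. Without Cr B x Cr A replicate 1 it was -0.29 and -0.14.

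In 4 members the paternal share was higher in Cr A x Cr B. The lowest adjusted p was at scaffold 1, 17775338 to 17778418, plus strand, where paternal reads made up 12.4% and 11.7% in Cr A x Cr B and 1.94% and 1.48% in Cr B x Cr A. Its paternal copy gave reads mainly when it came from Cr B (log2 Cr A over Cr B -1.48, SE 0.16, adjusted p = 0.00315, edgeR). With its deepest SNP alone the log2 was -2.52 and the call was lost (adjusted p = 0.103; 1.21e-07 to 0.103 over its alternatives). The gene of scaffold 6 at 6198054, given above, had a log2 of -0.92 (SE 0.11, adjusted p = 0.00468, edgeR). This value depended on the SNP read: with the deepest SNP alone, 6200728, the log2 was -3.57 (adjusted p = 0.00478; 2.41e-07 to 0.0414 over its alternatives). At scaffold 6, 8493194 to 8493484, minus strand, the paternal reads numbered 80 of 2295 and 129 of 1533 in Cr A x Cr B, against 0 of 533 and 4 of 1355 in Cr B x Cr A. This was the largest difference among the 7 (log2 -2.38, SE 0.40, adjusted p = 0.0137, edgeR), and without Cr B x Cr A replicate 2 its log2 was -4.29 (adjusted p = 0.0568; 0.0122 to 0.0401 with any other library left out). With its deepest SNP alone the call was also lost (adjusted p = 0.0936). The fourth, at scaffold 8, 2980622 to 2983390, plus strand, had 6.12% and 5.91% in Cr A x Cr B and 2.03% and 1.55% in Cr B x Cr A (log2 -0.92, SE 0.19, adjusted p = 0.0256, edgeR). It was named after its values were seen, and its call was lost with any 1 of the 4 libraries left out (adjusted p from 0.0520 to 0.112), with the deepest SNP alone (0.0961) and with DESeq2 (0.0534).

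In the other 3 members the paternal share was higher in Cr B x Cr A. On scaffold 5, at 6015323 to 6016372, plus strand, paternal reads numbered 0 of 337 and 2 of 1320 in Cr A x Cr B, against 10 of 441 and 7 of 349 in Cr B x Cr A. The directions did not overlap, on small paternal counts (log2 2.05, SE 0.33, adjusted p = 0.0116, edgeR). Without Cr A x Cr B replicate 2 its log2 was 3.37 (adjusted p = 0.0558; 0.0286 to 0.0456 with any other library left out). At scaffold 4, 1180130 to 1180974, minus strand, the share was 0.708% and 1.61% in Cr A x Cr B and 4.99% and 4.81% in Cr B x Cr A (log2 1.12, SE 0.20, adjusted p = 0.0175, edgeR). Its call was lost without either Cr B x Cr A library (adjusted p = 0.0553 without replicate 1 and 0.0640 without replicate 2). The gene of scaffold 2 at 1047690 had a log2 of 0.79 (SE 0.19, adjusted p = 0.0401, edgeR), and its call was lost without Cr A x Cr B replicate 1 (adjusted p = 0.162) or either Cr B x Cr A library (0.125 and 0.0633).

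Paternal reads could be compared between SNPs of a gene in 59 members, those with at least 2 SNPs of 20 or more reads in each library. They held 288 such SNPs. In 51 of the 59 the SNPs spanned 100 bp or more. In the rest they lay closer, so many reads were counted at more than 1 SNP and say little of the whole gene. In 55 of the 59 a paternal read was seen at every SNP, and in 1 paternal reads lay at 1 SNP alone. Within a gene the paternal share, summed over libraries, spanned a median of 1.80 points from its lowest to its highest SNP, and under 2 points in 30 members. In 35 members every SNP was at 85% maternal or more in each library, and in 24 at least 1 SNP was not. SNPs of a gene share reads and are not replicates.

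In 6 of the 59 members the SNPs spanned more than 10 points, and a mainly maternal gene held 1 or more SNPs of 13.4% to 37.3% paternal reads. These 6 were singled out after their values were seen. The clearest was the second most covered member, at scaffold 2, 1047690 to 1050750. Its 5 SNPs nearest the 5′ end, at 1050004 to 1050235, had 3703 to 18853 reads each over the 4 libraries and a paternal share of 0.131% to 0.297%. The other 14 SNPs, at 1047908 to 1049547, had 168 to 452 reads each and a paternal share of 27.8% to 37.3%. All 19 lay in listed exons. The 14 SNPs held 6.35% of the reads of these 19 SNPs but 93.2% of the paternal reads. The gene's mean of 97.2% maternal reads thus combined a deep 5′ stretch with few paternal reads and a shallow stretch. Summed over libraries, the shallow stretch was near the 2 to 1 dosage, but in single libraries its SNPs ran from 15.3% to 70.9% paternal reads. Over the 14 SNPs the median paternal share was 27.7% and 21.2% in Cr A x Cr B and 45.3% and 36.3% in Cr B x Cr A, and over the 5 SNPs it was 0.121% and 0.0656%, against 2.00% and 0.183%.

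A similar step was present at scaffold 4, 1180130 to 1180974. Its 4 exon SNPs, at 1180711 to 1180835, had 2123 to 6649 reads each and 0.474% to 1.22% paternal reads. The 2 SNPs outside listed exons, at 1180535 and 1180539, had 237 and 241 reads and 31.2% and 31.5% paternal reads. These 2 neighbouring SNPs held 2.95% of the reads and 51.5% of the paternal reads. With exon SNPs alone the log2 Cr A over Cr B of this gene was 0.48 (adjusted p = 0.262, edgeR; 2.07e-06 to 0.262 over its alternatives), and its call was not kept without these 2 SNPs.

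At scaffold 8, 43910 to 45030, plus strand, 4 SNPs at 44504 to 44580 had 0.325% to 0.651% paternal reads, and 2 SNPs nearer the 3′ end, at 44721 and 44888, had 25.2% and 28.9%. Both of these held paternal reads in each library, from 11.8% to 38.8%. This interval overlaps another listed gene, and the library kit does not mark strand, so reads of the overlapping genes cannot be told apart. The interval at scaffold 1, 1582990 to 1588387, minus strand, had 1 SNP of 35.2% paternal reads, 430 bp from its 3′ end, beside 5 SNPs of 0.753% to 3.10%. At that SNP the paternal share was 98.04% and 30.0% in Cr A x Cr B and 34.5% and 33.5% in Cr B x Cr A, and it held 92.0% of the paternal reads of the 6 SNPs. In the last 2 genes, at scaffold 3, 5378364 to 5381741, and scaffold 1, 14844084 to 14846550, both on the minus strand, a single SNP stood at 30.9% and 13.4% while the others reached 6.74% and 3.43%.

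**Figure D4:**
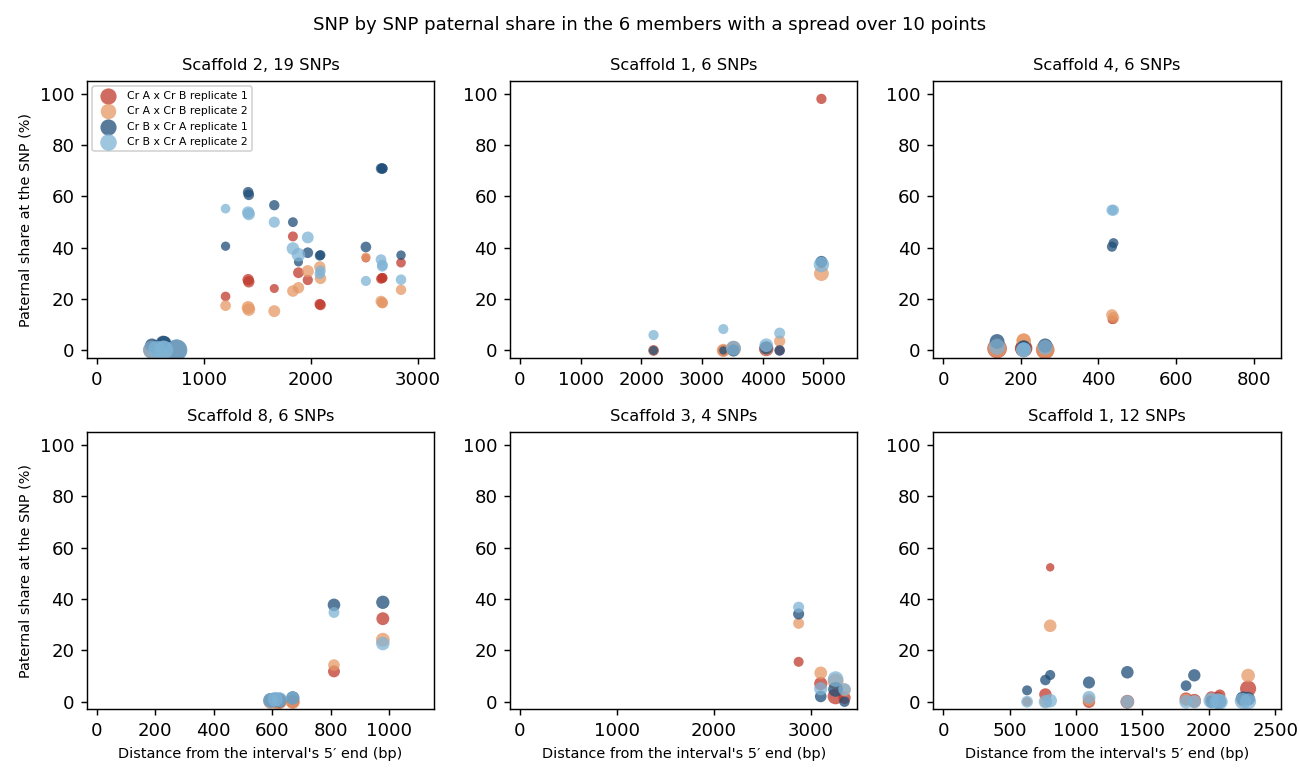
Paternal share at each SNP (%, vertical axis) by its distance from the 5′ end of the gene interval (bp, horizontal axis), for the 6 members whose SNPs span more than 10 points, 1 panel per gene. Each point is 1 SNP in 1 library (colour), larger with more reads. In the scaffold 2 gene the deep SNPs lie near 0% and the 14 others between 15.3% and 70.9% in single libraries.

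At scaffold 4, 2451708 to 2456314, the 20 SNPs that passed the read minimum covered 4005 bp and, summed over libraries, ran from 2.14% to 7.50%, a spread of 5.36 points. Each of the 20 held paternal reads. Exon and non-exon SNPs could be set side by side in 34 members. The median paternal share was 2.23% at exon SNPs and 1.69% at non-exon SNPs, with exon SNPs higher in 19 members and non-exon SNPs higher in 15. Non-exon SNPs held 20 to 478 reads per gene, and exon SNPs 68 to 23147. A small paternal share could thus go unseen at non-exon SNPs, and the difference was not tested.

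Position and structure of the members are given as counts. They lay on all 8 main scaffolds, from 12 genes on scaffold 8 to 25 on scaffold 1, which is 1.61% (scaffold 3) to 2.65% (scaffold 4) of covered genes. The median interval was 2013 bp in members, 1779 bp in almost wholly maternal genes and 2710.5 bp in covered genes. The median number of SNPs was 4 in members and 3 in the other 2 sets, and 26.9% of members had a single SNP, against 22.4% of covered genes. Listed exons held 82.1% of the members' SNPs, 82.6% of those of the almost wholly maternal genes and 73.5% of those of covered genes. No test was made of these differences.

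Of the members, 15 (10.3%) lay within 10000 bp of another member or almost wholly maternal gene, against 4.84% of covered genes, a difference that was not tested. They formed 8 runs, 5 of them of 2 genes. The longest held 4 members and no almost wholly maternal gene, at scaffold 5, 6012082 to 6031008. It contains the most deeply covered member, the gene at 6012082 and the gene at 6015323 that differed by accession. The fourth, at 6027995 to 6031008, minus strand, had 3% and 0% paternal reads in Cr A x Cr B and 3.57% and 0% in Cr B x Cr A. No pattern over the libraries was common to the 4 neighbours: the gene at 6018196 was highest in Cr A x Cr B, that at 6015323 in Cr B x Cr A, and that at 6027995 in both replicate 1 libraries.

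Levels of the members were compared between the directions through total allelic reads, which entered the rule only through the minimum of 20. edgeR's quasi-likelihood test called 0 of 145 members, against 0% of 9040 genes tested. At an unadjusted p under 0.05 there were 8 members (5.52%) and 123 genes (1.36%). DESeq2, fitted to a wider set of genes, called 1 of 145 members (0.690%) and 24 of 12638 genes (0.190%). The median log2 of Cr A x Cr B over Cr B x Cr A was 0.05 over members and -0.04 over all genes. Changes of more than 2-fold were fitted in 27 members (18.6%) and in 10.8% of all genes. Members had a median of 221 allelic reads per library, against 404 for covered genes. The 9040 genes tested are a larger set whose median depth was not taken, so these shares may compare genes of unlike depth. In bulk endosperm, fewer cells of a type and less RNA per cell cannot be told apart.

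The member with the largest fitted difference, chosen after its values were seen, lay at scaffold 8, 5539043 to 5542464, minus strand. It had 2804 and 1044 allelic reads in Cr A x Cr B and 120 and 32 in Cr B x Cr A. Directions were far apart, but so were the replicates of each, and edgeR gave a log2 of 4.79 with an adjusted p of 1.00. DESeq2 called it, and no other member (log2 4.81, adjusted p = 0.000278). Its single library under 99% maternal was the shallowest, Cr B x Cr A replicate 2, with 6.25% paternal reads.

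Among members with 50 reads in every library, the largest fitted differences were at scaffold 1, 9206304 to 9208522, minus strand, with 741 and 164 CPM (allelic reads scaled to the library's total in gene intervals) in Cr A x Cr B and 127 and 26.0 in Cr B x Cr A (log2 2.53, SE 1.08), and at scaffold 5, 6853745 to 6855999, plus strand, with 59.9 and 20.6 against 7.59 and 10.6 (log2 2.19, SE 0.70). The gene of scaffold 4 at 1180130 had 992 and 507 CPM in Cr A x Cr B and 154 and 201 in Cr B x Cr A (log2 2.11, SE 0.50). The short interval of scaffold 3 at 3096109 had 821 and 915 against 258 and 156 (log2 2.04, SE 0.47). In these 4 both Cr A x Cr B libraries were the higher ones. One gene ran the other way, at scaffold 7, 3845424 to 3846510, plus strand, with 8.74 and 7.79 in Cr A x Cr B and 20.2 and 36.4 in Cr B x Cr A (log2 -1.74, SE 0.56). All 5 had an adjusted p of 1.00 (edgeR).

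**Figure D5:**
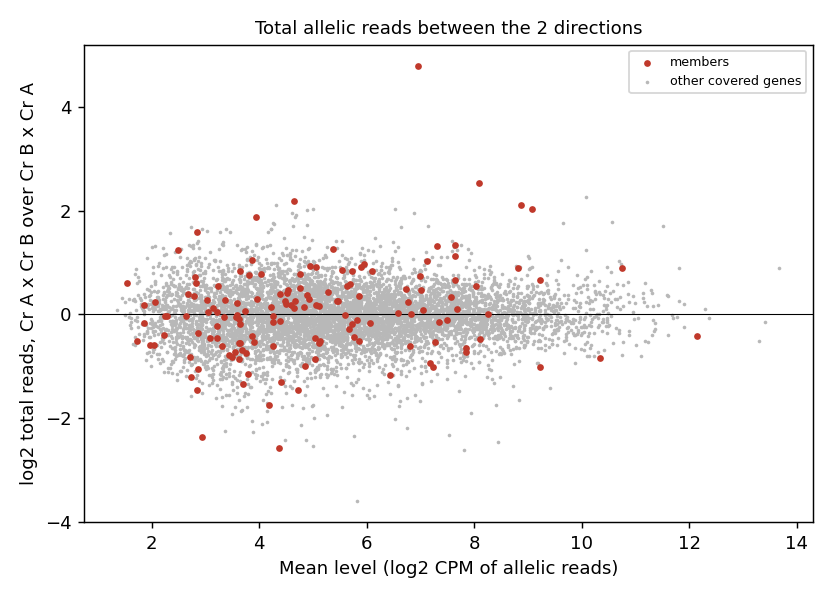
log2 of total allelic reads in Cr A x Cr B over Cr B x Cr A (vertical axis) against the mean level (log2 CPM of allelic reads, horizontal axis), 1 point per gene, for members (red) and other covered genes (grey). Members lie on both sides of 0 with a median of 0.05, and the highest point is the scaffold 8 gene at 4.79; edgeR called no gene.

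Levels of the members also differed between the replicates of Cr A x Cr B. They held 2.15% and 1.43% of the allelic reads in gene intervals of Cr A x Cr B, replicates 1 and 2, and 1.78% and 1.52% of those of Cr B x Cr A. In Cr A x Cr B, 100 of 145 members (69.0%) were at a higher CPM in replicate 1, against 44.3% of covered genes. The members' median log2 of replicate 1 over replicate 2 was 0.61, against -0.10 over covered genes. In Cr B x Cr A 67 members (46.2%) were higher in replicate 1, against 41.7% of covered genes. There the members' median was -0.17, against -0.19 over covered genes. The 2 replicates of Cr A x Cr B thus stood apart in the members' level while their median paternal shares were 2.19% and 3.49%; a link between the level and the share was not tested.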

How the data were processed

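Per the labels' protocols, RNA libraries were made with a TruSeq RNA v2 kit, which does not mark strand. Trimmomatic, Bowtie 1.0 and TopHat are listed in the submitters' processing notes. The genome build and allele caller are not given in the sources used here. The authors deposited maternal and paternal read counts per SNP with gene and exon intervals, per the file headers, in 2 tables, 1 per replicate. Their columns name the directions by a suffix only and were matched to the 4 libraries site by site: both counts were equal at 99.99% of sites or more, and at 5.84% or fewer for any other pairing. Read counts per base of each library, also deposited by the authors, gave the calls of neither parental base. Leaf DNA reads were not analysed here.

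Counts were summed per gene interval and library (Python 3.11.15, pandas 2.3.3). Members and gene lists were chosen with earlier results of these data known, and lists of named genes could not be matched to the intervals. The accession test (edgeR 4.0.16, R 4.3.3, quasi-likelihood) used a maternal and a paternal column per library, with terms for library, parent and accession, on genes with 20 reads in each cross. Total reads were tested with TMM and filterByExpr. Adjusted p-values are Benjamini-Hochberg over all genes tested. Standard errors are the log2 value divided by the square root of F. Alternatives included DESeq2 1.42.0, exon SNPs, the deepest SNP, other bounds and each library left out.

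Among members of 50 or more reads in all 4 libraries, the genes named were the 10 with most reads in their least covered library, the 5 lowest and 5 highest mean maternal shares, the 5 widest ranges, and the 5 largest differences by accession (past the threshold) and in total reads. The 3 genes nearest each side of a bound are given without that minimum; other genes were named after their values were seen. Counting intervals are 95% Clopper-Pearson and do not cover the spread between samples.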

Additional observations from a re-analysis of the deposited data

Results flagged for a closer look

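In 7 members the maternal share differed between the directions of the cross by the accession term of edgeR (log2 Cr A over Cr B, adjusted p under 0.05 over all genes). The values were -1.48 at scaffold 1, 17775338 to 17778418, -2.38 at scaffold 6, 8493194 to 8493484, -0.92 at scaffold 6, 6198054 to 6200889, and -0.92 at scaffold 8, 2980622 to 2983390, where the Cr B allele was the higher one. They were 2.05 at scaffold 5, 6015323 to 6016372, 1.12 at scaffold 4, 1180130 to 1180974, and 0.79 at scaffold 2, 1047690 to 1050750, where the Cr A allele was the higher one. In each of the 7, both libraries of a direction lay on the same side of both libraries of the other direction. The test that picked these 7 used the same counts, so this separation adds no support to the calls.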

How the results depend on the processing

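The number of members was 145 and ran from 103 to 189 over 11 alternatives (157 to 184 with 1 library left out of the rule), and 117 with the deepest SNP of each gene alone. Their median paternal share, 2.72% as the mean of the 4 libraries, was 3.74% with a lower bound of 80% and 1.82% with one of 90%, and 3.13% to 3.26% with 1 library left out. Both follow from the rule's own construction. By accession, the share called over all genes tested was 14.4%, and 17.4% with a replicate block, against 4.83% and 11.0% of members. With any 1 library left out the members' share was again the lower one. Because of the rule, a lower share is not a result about the members. The 7 members called by accession became 16 with a replicate block and 6 to 12 with 1 library left out. Of 70 alternative values of these 7 genes, 52 kept direction and call, 17 lost the call and 1 turned: with the deepest SNP alone, the log2 of the gene at scaffold 2, 1047690 to 1050750, was -0.27, and that SNP lies in the deep 5′ stretch with few paternal reads. In total reads 0 members were called, 1 with DESeq2, 1 with a replicate block (in both the gene at scaffold 8, 5539043 to 5542464; log2 4.89 and adjusted p = 0.00516 with the block) and 0 with any 1 library left out. Over all genes, DESeq2 called 24 of 12638 (0.190%) and the replicate block 5 of 9040 (0.0553%), against 0.690% of members in both. Replicate numbers pair only 2 samples per direction and no label says that they mark a shared batch, so the block is given here alone. The paternal share of the members' summed reads was 4.25%, and 3.28% without the gene with most paternal reads, an alternative chosen after seeing the data. Depth limits the members with few paternal reads, since 1 read placed some under 99%.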
